A study of Mus musculus with 2 samples.

Results

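Saa1, Saa2, Saa3, Chil3 and Slpi encode 5 secreted proteins of the inflammatory response and were followed through the cell classes of mouse colorectal tumours induced with azoxymethane (AOM) and dextran sulphate sodium (DSS). These 5 genes of the 32285 listed were selected by symbol, and they were chosen with their levels in these 2 libraries known, so every difference between libraries below is a description with no test. One library was labelled STK25 wKO and came from pooled tumours of mice described in the study as global knockouts of the kinase STK25 (STK25-/-). The other was labelled WT and came from pooled tumours of wild-type mice. Both were droplet libraries of 3′ ends from trypsin-dissociated tumours. The number of mice, their age, strain and sex, and the form of the knockout allele are not stated in the labels or the study's methods. The series' design text also names a sort by mCherry signal, whose part in these 2 libraries is not stated there. The tumours of each genotype were pooled into 1 library, so genotype, library and tumour pool cannot be told apart, and intervals cover counting error only.

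Serum amyloid A proteins are small apolipoproteins of the acute phase, which the liver secretes under IL-6 and IL-1 and which the gut epithelium also makes in contact with bacteria and IL-22. In mice Saa1 and Saa2 are the closely related acute-phase forms, and Saa3 is the form made largely outside the liver, in macrophages, fat and stroma. Chil3 (Ym1) is a chitinase-like lectin of myeloid cells that has lost chitinase activity, and Slpi is a small inhibitor of neutrophil elastase and cathepsin G secreted by mucosal epithelium and by myeloid cells.

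Saa1 (ENSMUSG00000074115), Saa2 (ENSMUSG00000057465) and Saa3 (ENSMUSG00000040026) lie in 1 cluster on chromosome 7 of GRCm38 (mm10). Saa3 spans 46711998 to 46715700 and Saa1 46740497 to 46742980, both on the minus strand, and Saa2 spans 46751790 to 46754313 on the plus strand. Chil3 (ENSMUSG00000040809) lies on chromosome 3, 106147554 to 106167564, and Slpi (ENSMUSG00000017002) on chromosome 2, 164354070 to 164389095, both on the minus strand. The promoters of the 3 Saa genes are shown because Saa1 and Saa2 were found in the same cells and Saa3 in others. Each is the RefSeq window of GRCm38.p6 from 250 bases before to 50 bases after the gene's start, with matches to the C/EBP motif TTGCNNAA on either strand in capitals.
Saa1, chr7:46742931-46743230, minus strand: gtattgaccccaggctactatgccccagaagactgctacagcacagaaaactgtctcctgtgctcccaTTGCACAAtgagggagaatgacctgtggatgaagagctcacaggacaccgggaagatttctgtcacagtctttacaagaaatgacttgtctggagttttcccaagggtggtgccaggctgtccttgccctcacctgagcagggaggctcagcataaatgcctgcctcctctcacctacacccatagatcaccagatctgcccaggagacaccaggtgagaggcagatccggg
Saa2, chr7:46751583-46751882, plus strand: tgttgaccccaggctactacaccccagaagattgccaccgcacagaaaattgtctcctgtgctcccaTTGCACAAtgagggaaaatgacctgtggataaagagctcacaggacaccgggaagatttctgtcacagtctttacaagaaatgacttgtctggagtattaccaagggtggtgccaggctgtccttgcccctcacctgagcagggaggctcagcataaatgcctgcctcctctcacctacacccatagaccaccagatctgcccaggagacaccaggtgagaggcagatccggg
Saa3, chr7:46715627-46715926, minus strand: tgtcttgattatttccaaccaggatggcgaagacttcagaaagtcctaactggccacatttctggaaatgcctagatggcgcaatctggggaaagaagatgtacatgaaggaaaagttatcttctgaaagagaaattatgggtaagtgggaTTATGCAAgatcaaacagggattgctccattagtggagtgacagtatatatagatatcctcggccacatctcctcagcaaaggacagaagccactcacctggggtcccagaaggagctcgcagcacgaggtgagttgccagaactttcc

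The Saa1 and Saa2 windows were identical at 287 of 299 aligned bases (96.0%), whereas Saa1 and Saa3 could be aligned over only 97 bases, of which 59 were identical (60.8%). The C/EBP match began 182 bases before the start of Saa1, 183 before that of Saa2 and 99 before that of Saa3, and the Slpi window also held 1 match while that of Chil3 held none. The Slpi window, 164356458 to 164356757, follows the RefSeq start, which lies inside the gene span given above and not at its end. Of 27025 promoters of this length, 10.8% held such a match. The loose NF-κB pattern, GGG and CC 5 bases apart, was present in Saa1, Saa2 and Chil3 and in 50.4% of all promoters, and the STAT pattern TTCCNGGAA in none of the 5 and in 1.15% of all. TATAAA was found in Chil3 only, and in 14.2% of all promoters. No 2 matches overlapped. All motifs were searched on both strands, and a match is a description of the letters, not of binding. The annotated Saa1 and Saa2 transcripts, 609 and 606 bases long, were 94.4% identical, yet none of the 310 stretches of 91 bases in the last 400 bases of Saa1 occurred in Saa2. The sources used here do not say how reads that fit both genes were counted, so the split between them is uncertain.

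The library labelled STK25 wKO held 13883 cells after filtering (median 2091 unique molecular identifiers, UMIs, per cell) and the library labelled WT 12270 (median 1383). The 2 libraries shared 230 cell barcodes, 1.62% and 1.83% of their barcodes. Cells were grouped into 12 classes by marker genes, with the 5 genes left out of the clustering. Of the filtered cells, 2222 in the wKO-labelled and 2098 in the WT-labelled library fell in clusters that were left unnamed, at medians of 776 and 688 UMIs. The named classes carried their markers: the summed epithelial markers were at 20387 and 17314 CPM in epithelial cells, the neutrophil markers at 113201 and 21800 CPM in neutrophils and the monocyte or macrophage markers at 20979 and 15853 CPM in theirs. Stk25 itself was at 127 UMIs per 1000000 UMIs (CPM) in the wKO-labelled and 118 CPM in the WT-labelled library. Since the deleted part of the gene is not given, 3′ counts cannot check the labels, and both groups are named as labelled. B cells, at a median depth of 1227.5 and 947 UMIs, served as the class that should lack all 5 genes.

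Across all cells Saa1 was the one gene of the 5 with an interval wholly below 0, and so lower in the library labelled STK25 wKO, while Saa3, Chil3 and Slpi were higher there. Saa1 had 24594 UMIs (374 CPM) in the wKO-labelled and 27579 UMIs (721 CPM) in the WT-labelled library, a log2 ratio of −0.95 (95% counting interval −0.97 to −0.92), or −0.27 when each cell counted equally. Saa2 was scarce in both, with 75 and 45 UMIs, 1.14 and 1.18 CPM. Saa3 had 2929 UMIs (44.5 CPM) in the wKO-labelled and 124 UMIs (3.24 CPM) in the WT-labelled library, 13.7-fold higher. Chil3 had 2205 and 12 UMIs, 33.5 and 0.31 CPM (log2 ratio 6.74, interval 5.93 to 7.69), and Slpi 27449 and 1566 UMIs, 417 and 40.9 CPM, 10.2-fold higher. The relatives Saa4 (1 and 0 UMIs) and Chil4 (0 in both) were at or near the floor.

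**Figure D1:**
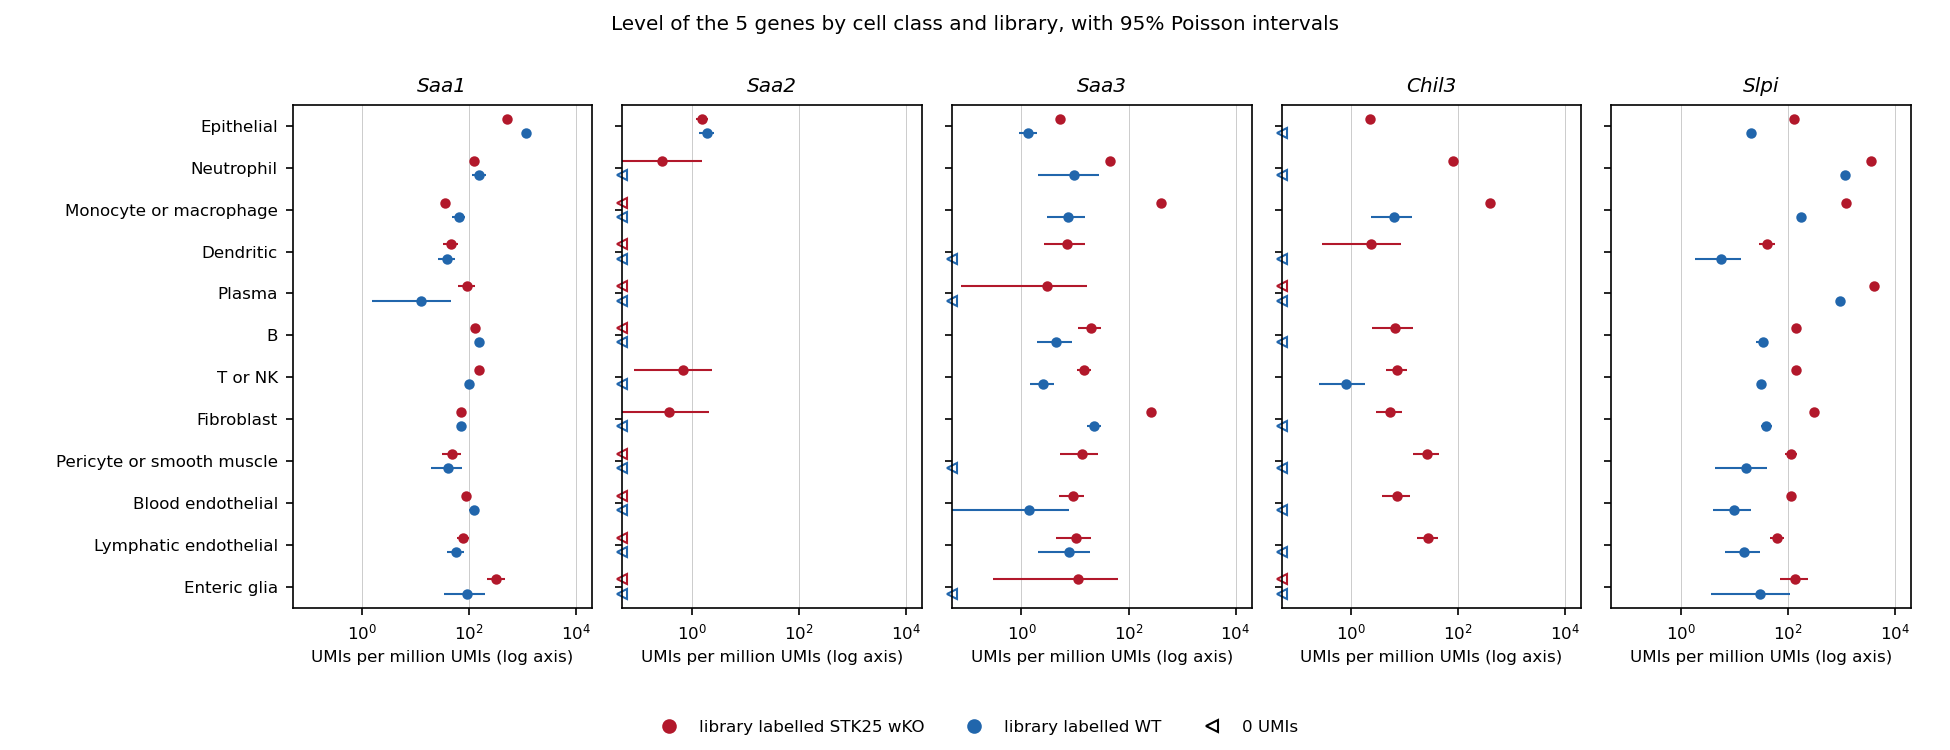
Level of each gene (horizontal log axis, UMIs per 1000000 UMIs) in 12 cell classes, with 1 panel per gene; red points are the library labelled STK25 wKO and blue points, below them, the library labelled WT, bars are 95% Poisson intervals and open triangles stand for 0 UMIs. Saa1 and Saa2 peak in epithelial cells, Saa3 in monocytes or macrophages and fibroblasts of the wKO-labelled library, Chil3 in monocytes or macrophages, and Slpi in plasma cells and neutrophils.

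By their shares of UMIs the 5 genes fell into an epithelial pair in both libraries and, in the wKO-labelled library, a myeloid or stromal trio. In the WT-labelled library the trio was less clear, since epithelial cells held the largest Slpi share and 30 of the 124 Saa3 UMIs. Epithelial cells held 91.8% of the Saa1 UMIs in the wKO-labelled and 93.6% in the WT-labelled library, and 93.3% and 95.6% of those of Saa2. Monocytes or macrophages held 57.3% of Saa3 in the wKO-labelled and 5.65% in the WT-labelled library, and fibroblasts 23.7% and 34.7%. For Chil3, 76.6% of the wKO-labelled UMIs were in monocytes or macrophages and 13.1% in neutrophils. Slpi was the most spread, with 46.7% of its wKO-labelled UMIs in neutrophils, 21.2% in epithelial cells, 18.5% in monocytes or macrophages and 5.05% in 40 plasma cells, against 22.5%, 28.8%, 10.8% and 9.77% in the WT-labelled library.

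The same split was seen in their correlation over 43 units of a cluster in 1 library, on log2(CPM + 1), where units of 1 library share depth and free RNA. Saa1 and Saa2 had a Pearson r of 0.88, and Saa3 with Chil3, Saa3 with Slpi and Chil3 with Slpi had 0.67, 0.68 and 0.71. Between the pair and the trio r lay between −0.12 and −0.01. Other genes were ranked by likeness to each member where they had at least 200 UMIs. The ranking left out the other members and mitochondrial, ribosomal, immunoglobulin and provisionally named (Gm and Rik) genes. The genes most like Saa1 were Clca4b (0.92), Ly6m (0.92) and the surface keratin Krt20 (0.90), followed by Ifit1bl1 and Clca4a. Saa2 was most like Clca4b and Ly6m (0.89 each), then Gsdmd, Prss30 and Creb3l3. Saa3 was most like haptoglobin (Hp, 0.76) and complement C3 (0.69), then Ccl8, Mmp19 and Mmp8. Chil3 was most like the granule genes Mmp8 (0.88) and Ngp (0.79), then Fcgr4, Camp and Retnlg, and Slpi was most like the chemokine Cxcl2 (0.92), then Acod1, Clec4e, S100a9 and S100a8.

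**Figure D2:**
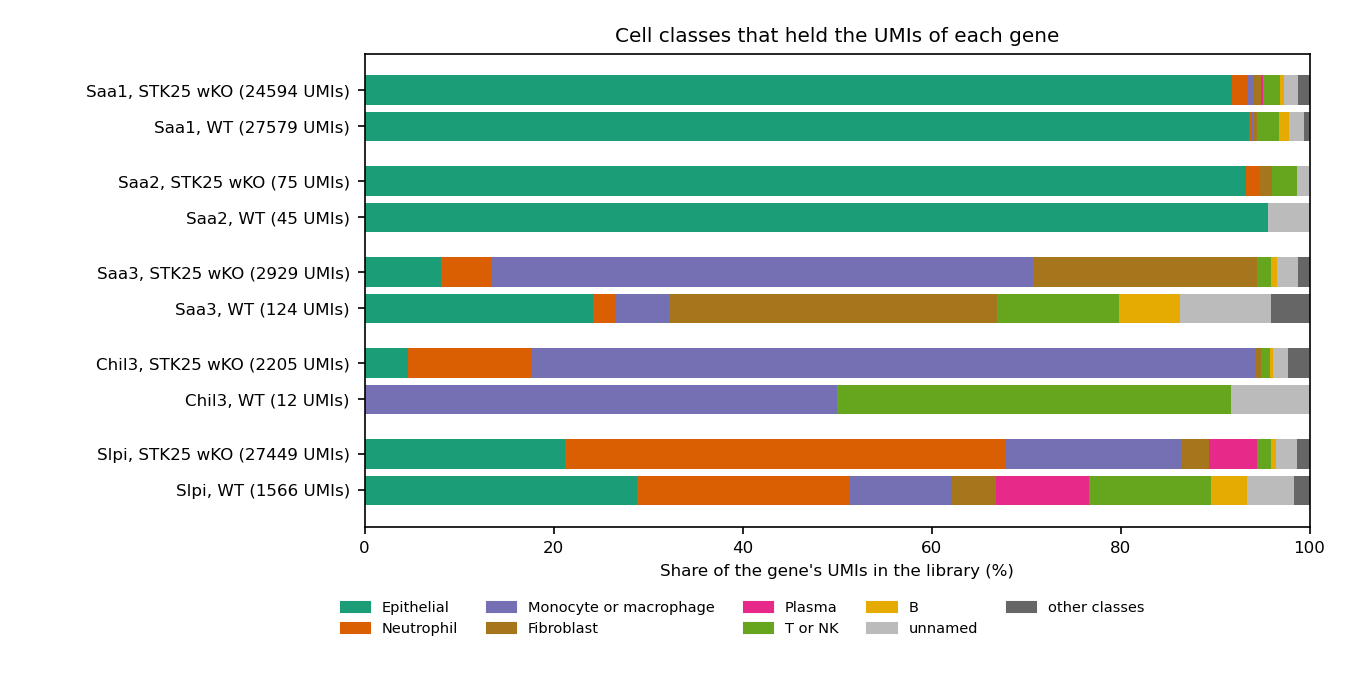
Share of each gene's UMIs (horizontal axis, percent of the gene's UMIs in a library) held by the named cell classes, with the library labelled STK25 wKO above the library labelled WT for each gene. Saa1 and Saa2 are held almost wholly by epithelial cells, 91.8% to 95.6%, whereas the WT-labelled bars of Saa3 and Chil3 rest on 124 and 12 UMIs.

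In epithelial cells Saa1 was at 502.5 CPM (496 to 509) in the 4853 cells of the wKO-labelled library and at 1151 CPM (1137 to 1165) in the 2628 cells of the WT-labelled library. The log2 ratio was −1.20 (−1.22 to −1.17). A UMI of Saa1 was seen in 29.5% and 33.3% of epithelial cells, where the median cell had 4460 and 4049.5 UMIs, against 11.6% and 14.1% of B cells. At a fixed 1000 UMIs per cell, the shares were 17.6% and 21.6% of epithelial cells and 6.5% and 12.4% of B cells, leaving out 149 and 167 epithelial and 210 and 896 B cells. Saa1 was thus above background in the epithelium of both libraries, and the libraries differed more in amount per cell than in the share of cells. The difference was smaller when each cell counted equally, at 546 and 941 CPM (log2 ratio −0.79).

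Saa1 was concentrated in few cells. Of its epithelial UMIs at least 50% lay in 94 cells of the wKO-labelled and 34 cells of the WT-labelled library, and the highest single cells held 363 and 916 UMIs. Cells with at least 10 Saa1 UMIs made up 8.78% (426 cells) and 10.4% (274 cells) of the epithelium and held 89.0% and 94.3% of its Saa1. They were deeper than the other epithelial cells, at medians of 11898.5 and 7216.5 UMIs against 4054 and 3702.5. Leaving out the 3 highest cells of each library gave 483 and 1052 CPM (log2 ratio −1.12).

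Within the epithelium Saa1 followed a surface and inflammatory pattern. The subcluster led by Ly6d, Ly6m and Bglap3, inflammatory epithelial-like by its markers, held 58.7% of all Saa1 UMIs in the wKO-labelled and 70.4% in the WT-labelled library. Its level was 1873 CPM in 442 wKO-labelled cells and 4822 CPM in 213 WT-labelled cells, with Saa1 seen in 80.1% and 88.7% of them. The absorptive-like subcluster led by Car4 and Tgm3 was at 3051 CPM in 379 wKO-labelled and 4392 CPM in 182 WT-labelled cells, the highest level among wKO-labelled subclusters. A second absorptive-like subcluster, led by 1810065E05Rik, Cyp2c55 and Car1, was at 1115 and 2008 CPM (203 and 31 cells), and an unnamed one led by Abtb2 at 673 and 1317 CPM (349 and 279 cells). In each of these 4 Saa1 was lower in the wKO-labelled library beyond counting error, with log2 ratios of −1.36, −0.53, −0.85 and −0.97 in the order given.

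**Figure D3:**
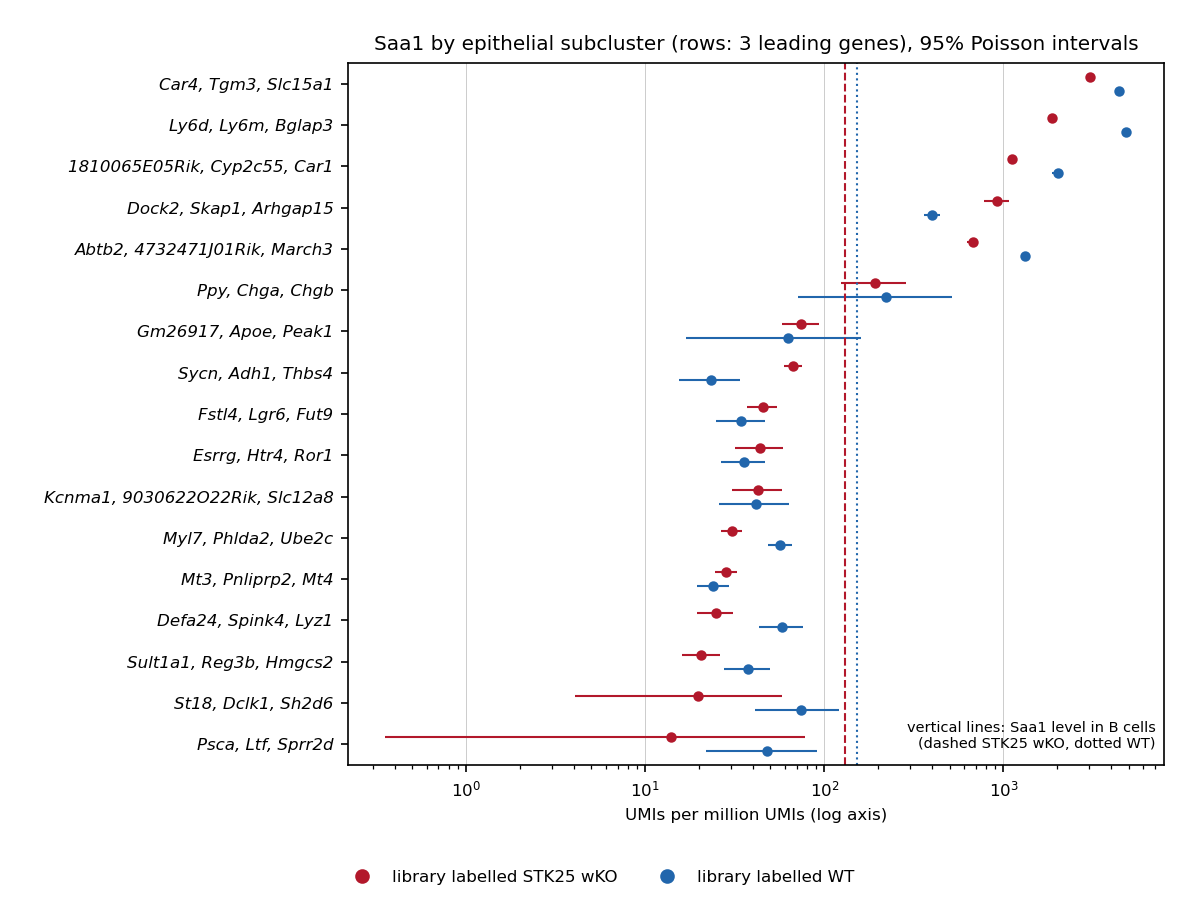
Saa1 level (horizontal log axis, UMIs per 1000000 UMIs) in epithelial subclusters, each named by its 3 leading genes and ordered by the wKO-labelled level; red points are the library labelled STK25 wKO, blue points the library labelled WT, bars are 95% Poisson intervals, and vertical lines mark the level in B cells. Of the 5 subclusters well above the B cell lines, 4 are lower in the wKO-labelled library and the one led by the immune gene Dock2 is higher.

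Stem-like subclusters held little Saa1. The one led by Mt3 and Pnliprp2 was at 28.4 and 23.9 CPM and the one led by Fstl4, Lgr6 and Fut9 at 45.2 and 34.4 CPM. Both were below the 131 and 152 CPM of B cells in the same libraries. These subclusters were deeper, at medians of 16095.5 and 5477 UMIs in that order, than B cells (1227.5 and 947 UMIs). CPM alone therefore did not settle whether their Saa1 lay above background. Of 16 epithelial subclusters with at least 20 cells in each library, 8 were lower in the wKO-labelled library with an interval below 0 and 2 were higher with an interval above 0. The first of the 2 was led by Dock2, Skap1 and Arhgap15, genes of immune cells (920 and 399 CPM, 48 and 358 cells). The second, led by Sycn and Adh1 (66.8 and 23.3 CPM), lay below the B cell CPM but was deeper, at a median of 12220 UMIs. Without the 2 epithelial subclusters led by immune genes, the log2 ratio in the epithelium was −1.21.

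Outside the epithelium Saa1 was lower than within it in every class of both libraries. Among the other 11 classes it ranged from 35.9 to 323 CPM in the wKO-labelled and from 12.5 to 153 CPM in the WT-labelled library, and the highest value, in 28 enteric glia, rested on 28 UMIs, of which 22 were in 1 cell. Relative to each 1000 CPM of 12 summed epithelial markers, Saa1 was at 24.7 in epithelial cells, 24.0 in B cells, 25.8 in neutrophils and 20.3 in fibroblasts of the wKO-labelled library, and the 11 other classes spanned 13.1 in monocytes or macrophages to 51.6 in plasma cells. In the WT-labelled library the same ratio was 66.5 in epithelial cells, 35.7 in B cells, 39.1 in neutrophils and 36.3 in fibroblasts, and the 11 other classes spanned 11.7 in plasma cells to 57.7 in blood endothelial cells. In T or NK cells Saa1 reached 150 CPM in the wKO-labelled and 100.2 CPM in the WT-labelled library. However, 193 of the 446 wKO-labelled UMIs came from 1 cell that carried 10 of the 12 epithelial markers, and without the highest cell of each library the levels were 85.8 and 97.8 CPM (log2 ratio −0.19). With each cell counted equally it was −0.26.

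Saa2, the twin of Saa1 by sequence, was at 1.56 CPM (70 UMIs) in wKO-labelled and 1.92 CPM (43 UMIs) in WT-labelled epithelial cells. The log2 ratio of −0.30 had an interval of −0.87 to 0.28, so no difference was detectable at this depth. Saa2 made up 0.309% (0.241 to 0.391, Clopper-Pearson) of the summed Saa1 and Saa2 UMIs of the wKO-labelled epithelium and 0.166% (0.120 to 0.224) of those of the WT-labelled epithelium. It was found where Saa1 was: 54 of 57 Saa2-positive epithelial cells (94.7%) in the wKO-labelled and 29 of 31 (93.5%) in the WT-labelled library also had Saa1, against 29.5% and 33.3% of all epithelial cells. B cells had 0 Saa2 UMIs in both libraries, which allows up to 3.27 and 1.68 CPM.

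Few genes of the acute-phase and epithelial defence list differed between the libraries by as much as Saa1. Across the 16733 genes with at least 20 epithelial UMIs, 0.944% had a log2 ratio of at least 1 (1 CPM added) and 1.23% one of at most −1, with a median of −0.11. Of 16 measured acute-phase and epithelial defence genes, 1 passed upwards (Hp, 4.63 and 0.758 CPM) and 0 downwards, with a median of −0.11. Among them Orm1, with 8 and 19 UMIs, had a log2 ratio of −2.25 (−3.65 to −0.99) before 1 CPM was added. The most abundant were the lectin Reg3b (832 and 850 CPM), the IgA transporter Pigr (770.5 and 855 CPM), Reg3g (406 and 418 CPM) and the Duox2 maturation factor Duoxa2 (196 and 287 CPM). Among 11 SAA family genes and receptors, Saa3 was the 1 that passed upwards and Saa1 the 1 that passed downwards, while the receptors Tlr4 (20.4 and 33.8 CPM), Tlr2 (17.0 and 17.5 CPM) and Scarb1 (12.4 and 13.6 CPM) did not pass. Of 22 inducers and transcription factors 3 passed upwards, and the most abundant, Nfkbia (229 and 209 CPM), Cebpd (146 and 155 CPM), Stat3 (109 and 138 CPM) and Nfkbiz (98.0 and 132 CPM), did not.

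Saa3 showed its main difference in monocytes or macrophages. It was at 399 CPM (380 to 418) in 1126 wKO-labelled cells and at 7.33 CPM (2.95 to 15.1) in 315 WT-labelled cells. The log2 ratio was 5.77 (4.72 to 7.08), a 54.4-fold difference that rests on 7 WT-labelled UMIs. A UMI was seen in 15.4% and 1.27% of the cells, at median depths of 2919.5 and 2265, against 2.59% and 0.498% of B cells. At 1000 UMIs per cell the shares were 10.6% and 0.712% of monocytes or macrophages and 1.12% and 0.563% of B cells, leaving out 53 and 34 monocytes or macrophages and 210 and 896 B cells. The WT-labelled class thus lay close to background. Of the wKO-labelled UMIs, 81.1% came from 47 cells with at least 10 each, and the 3 highest held 103, 84 and 72. Without the 3 highest cells of each library Saa3 was at 339 and 1.05 CPM, and with each cell counted equally the log2 ratio was 4.73.

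By subcluster, Saa3 was highest in 2 sets of wKO-labelled cells. The subcluster led by Ly6c2, Wfdc21 and Lrg1, with the monocyte gene Ly6c2 first, was at 1544 CPM in 102 wKO-labelled cells and had 0 UMIs in 47 WT-labelled cells. Over the whole class Ly6c2 had 494 wKO-labelled and 11 WT-labelled UMIs, Wfdc21 182 and 0, and Lrg1 372 and 7. The 47 WT-labelled cells thus hardly carried the leading genes, and the 2 libraries were not matched within this subcluster. The one led by Nos2, the inducible nitric oxide synthase, with Ccl5 and Timp1, was at 1745 CPM in 85 wKO-labelled cells and could not be compared, with 2 WT-labelled cells. That led by Hbb-bs and Ccl24 was at 396 CPM in 329 wKO-labelled cells and had 0 UMIs in 26 WT-labelled cells. Subclusters led by Ccl8 and Vcam1 (61.6 and 15.9 CPM), by Lsmem1 (50.2 CPM and 0 UMIs) and by Fabp5 and Pf4 (27.3 and 9.83 CPM) were lower.

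In fibroblasts Saa3 was at 261 CPM (242 to 281) in 802 wKO-labelled cells and at 22.9 CPM (16.6 to 30.9) in 670 WT-labelled cells, a log2 ratio of 3.51 (3.06 to 3.99). Here the UMIs came from very few cells. In the wKO-labelled library 13 cells with at least 10 UMIs held 83.3% of the 693 UMIs and 3 of them (203, 82 and 67 UMIs) held at least 50%, while in the WT-labelled library no cell exceeded 8 UMIs. Without the 3 highest cells of each library the levels were 129 and 11.3 CPM, a log2 ratio of 3.52, whereas with each cell counted equally the log2 ratio was 2.27. The 13 high cells carried a median of 8 of 12 fibroblast markers and 3 of 14 monocyte or macrophage markers, against 6 and 2 in the other wKO-labelled fibroblasts. They were also deeper, at a median of 5276 UMIs against 2483, so these marker counts were not matched for depth. Saa3 was seen in 7.61% and 1.49% of fibroblasts. At 1000 UMIs per cell it was seen in 3.94% and 0.725% of fibroblasts, leaving out 117 and 118 cells. The highest fibroblast subclusters were those led by Pi16 (731 and 37.6 CPM), in which 1 wKO-labelled cell held at least 50% of the UMIs, and by Tcf21 (322 and 30.6 CPM).

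Relative to 1000 CPM of 14 summed monocyte or macrophage markers, Saa3 was at 19.0 in monocytes or macrophages and 173 in fibroblasts of the wKO-labelled library, and between 2.67 and 12.8 in the other 10 classes. Epithelial Saa3, 5.28 CPM in the wKO-labelled and 1.34 CPM in the WT-labelled library, was lower than the 19.6 and 4.48 CPM of B cells, which were shallower. Set against those markers the order was the other way, at 12.8 and 6.81 in epithelial cells and 10.1 and 6.525 in B cells. Whether epithelial Saa3 lay above background was not settled by these measures. At 1000 UMIs per cell it was seen in 0.914% and 0.122% of epithelial cells. In neutrophils Saa3 was at 44.3 and 9.78 CPM (158 and 3 UMIs).

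Chil3 was nearly confined to the wKO-labelled library. In monocytes or macrophages it was at 401 CPM (383 to 421) in wKO-labelled and 6.28 CPM (2.31 to 13.7) in WT-labelled cells, a log2 ratio of 6.0 (4.87 to 7.45) that rests on 6 WT-labelled UMIs in 6 cells. It was seen in 18.6% and 1.90% of these cells against 0.915% and 0% of B cells (0 of 1606 WT-labelled B cells allow up to 0.187%). At 1000 UMIs per cell the shares were 13.1% and 0.356%. The values were less concentrated than those of Saa3, with at least 50% of the UMIs in 27 wKO-labelled cells, against 18 for Saa3, and 57 UMIs in the highest.

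**Figure D4:**
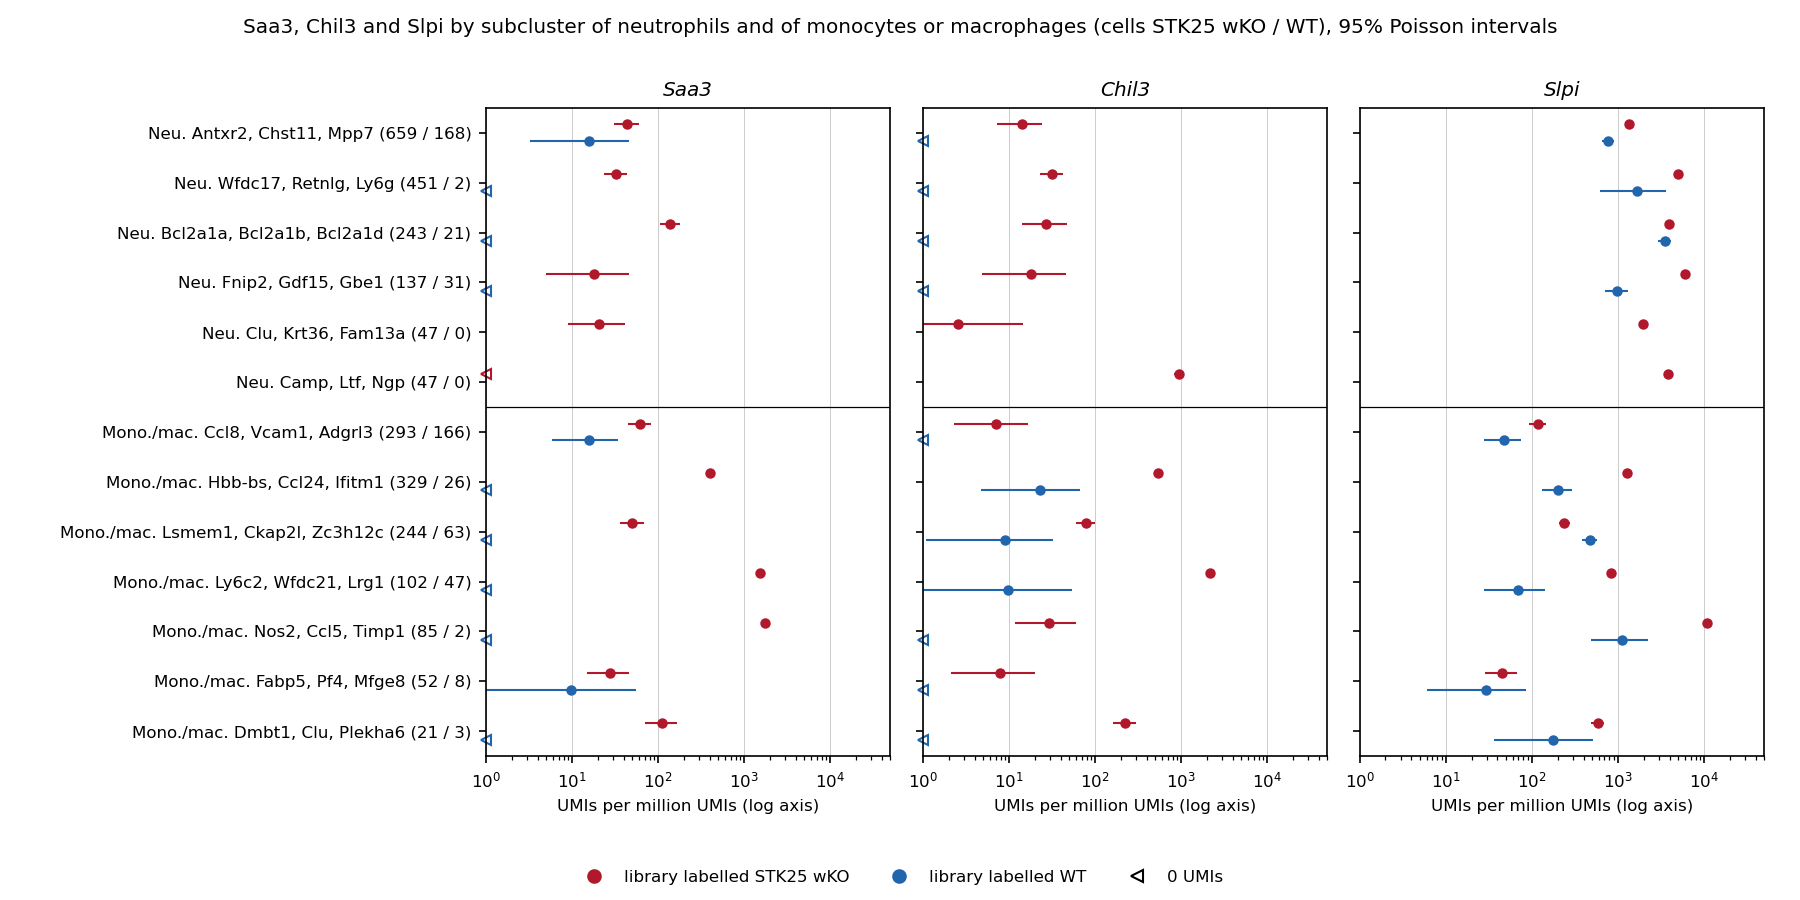
Level of Saa3, Chil3 and Slpi (horizontal log axes, UMIs per 1000000 UMIs) in subclusters of neutrophils, above the line, and of monocytes or macrophages, below it, each named by its 3 leading genes with its number of cells in the libraries labelled STK25 wKO and WT; red points are the library labelled STK25 wKO, blue points the library labelled WT, bars are 95% Poisson intervals and open triangles 0 UMIs. The Ly6c2 subcluster is high in Saa3 and Chil3 and the Nos2 subcluster in Saa3 and Slpi but not in Chil3 (28.9 CPM).

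Chil3 and Saa3 overlapped in the Ly6c2 subcluster and parted in the Nos2 subcluster. In the Ly6c2 subcluster Chil3 was at 2146 CPM in wKO-labelled and 9.84 CPM in WT-labelled cells, and was seen in 52.0% and 2.13% of them. As for Saa3, the WT-labelled cells there hardly carried the genes that led the subcluster. In the subcluster led by Hbb-bs and Ccl24 it was at 540 and 23.2 CPM, and in the Nos2 subcluster no more than 28.9 CPM was reached in wKO-labelled cells. Among all wKO-labelled monocytes or macrophages, 98 cells had both genes, which was 56.6% of the 173 Saa3-positive and 46.9% of the 209 Chil3-positive cells. Slpi was found in 65.9% of the Saa3-positive and 63.2% of the Chil3-positive cells, against 35.8% of the class.

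In neutrophils Chil3 was at 80.8 CPM (288 UMIs) in 1609 wKO-labelled cells and had 0 UMIs in 229 WT-labelled cells. Set against a floor of 3 counts over the class, it was 8.26-fold higher (log2 ratio 3.05, counting interval from 2.74 upwards). This value was set by cells that the WT-labelled library hardly held. A subcluster of 47 wKO-labelled cells led by the secondary granule genes Camp, Ltf and Ngp was at 953 CPM, with Chil3 in 80.9% of the cells, and it had no WT-labelled cell. In the cluster led by Acod1 and Hdc, which held 1079 wKO-labelled and 227 of the 229 WT-labelled neutrophils, Chil3 had 28 and 0 UMIs. Against the same floor this was 1.62-fold higher (log2 ratio 0.70, counting interval from 0.31 upwards). In the other named classes Chil3 did not exceed 27.0 CPM in the wKO-labelled library, and in lymphatic endothelial cells, where this value was reached, 15 of 21 UMIs were in 1 cell. Epithelial Chil3, at 2.27 CPM in the wKO-labelled library and 0 UMIs in the WT-labelled library, was below the 6.53 CPM of wKO-labelled B cells, which were shallower. Per 1000 CPM of summed monocyte or macrophage markers it was at 5.52 in wKO-labelled epithelial cells, against 3.37 in B cells. Whether it lay above background was not settled by these measures.

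The genes around Saa3 and Chil3 in monocytes or macrophages differed in the same direction in part. Over the 11109 genes measured there, 4.76% had a log2 ratio of at least 1 and 6.23% one of at most −1, with a median of −0.10. Of 12 genes of alternatively activated macrophages and of monocytes 5 passed upwards and 2 downwards, and the most abundant were fibronectin (Fn1, 1477 and 832 CPM), Plac8 (763 and 306 CPM), arginase (Arg1, 681 and 279 CPM) and the eosinophil attractant Ccl24 (304 and 126 CPM). The 2 that passed downwards were the lectin Mgl2 (24.5 and 73.3 CPM) and the scavenger receptor Cd163 (2.14 and 11.5 CPM), and the mannose receptor Mrc1 was at 201.2 and 374 CPM (log2 ratio −0.89). Of 14 acute-phase and defence genes 6 passed upwards, among them Hp (230 and 79.6 CPM) and the chemokine Cxcl1 (183 and 77.5 CPM). Of 3 chitinase-like genes measured Chil3 alone passed, while Ctbs (16.2 and 13.6 CPM) and Chid1 (14.3 and 17.8 CPM) did not. Of 9 neutrophil granule genes 7 passed upwards, led by S100a9 (596 and 35.6 CPM) and S100a8 (562 and 29.3 CPM). The 10 neutrophil markers summed to 2214 CPM in wKO-labelled and 687 CPM in WT-labelled monocytes or macrophages, with none at 0 in either, and their part in the results of this class was not tested. In wKO-labelled B cells the neutrophil markers summed to 2136 CPM, with 1 at 0.

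Slpi had the most UMIs of the trio, and neutrophils held more of it than any other class of the wKO-labelled library. It was at 3598 CPM (3536 to 3661) in wKO-labelled and 1151 CPM (1034 to 1278) in WT-labelled neutrophils, a log2 ratio of 1.64 (1.49 to 1.80). A UMI was seen in 71.7% and 37.1% of neutrophils, at median depths of 1664 and 1174, against 17.8% and 3.42% of B cells. At 1000 UMIs per cell the shares were 69.1% and 35.0% of neutrophils and 14.1% and 2.82% of B cells, leaving out 235 and 92 neutrophils. The neutrophils of both libraries thus stood far above background.

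The 2 libraries held different neutrophils. The cluster led by Retnlg, Ngp and S100a9 had 530 wKO-labelled and 2 WT-labelled cells, and Slpi was at 4630 CPM there in the wKO-labelled library. In the Acod1 and Hdc cluster, which both libraries filled, Slpi was at 2511 and 1112 CPM (log2 ratio 1.17, interval 1.01 to 1.34). By subcluster the difference was uneven: 3901 and 3509 CPM in cells led by Bcl2a1a (log2 ratio 0.15, interval −0.09 to 0.41), 1354 and 772 CPM in cells led by Antxr2 (0.81), and 6027 and 973 CPM in cells led by Fnip2 and Gdf15 (2.63). A subcluster of 47 wKO-labelled cells led by Clu and Krt36 carried epithelial markers and had Slpi at 1947 CPM. The 10 neutrophil markers summed to 113201 CPM in wKO-labelled and 21800 CPM in WT-labelled neutrophils.

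Some relatives of Slpi with a WAP domain were also higher in wKO-labelled neutrophils. Over the 9747 genes measured in neutrophils, 10.0% had a log2 ratio of at least 1 and 11.9% one of at most −1, with a median of −0.15. Of 5 WAP domain genes 3 passed upwards, Slpi itself among them. The most abundant besides Slpi were Wfdc17 (3501 and 355 CPM), Wfdc21 (817 and 13.04 CPM) and Wfdc18 (591 and 336 CPM), of which Wfdc18 did not pass. Of 10 neutrophil granule genes 9 passed upwards, including S100a9 (53004 and 6912 CPM), S100a8 (32779 and 4112 CPM), the resistin-like Retnlg (13423 and 838 CPM) and lipocalin (Lcn2, 3438 and 212 CPM). The mRNAs of neutrophil elastase (Elane) and cathepsin G (Ctsg), which Slpi inhibits, had 0 UMIs in neutrophils of both libraries. Their proteins were not assayed. Of the 10 listed targets and partners 3 were measured, namely Anxa2 (892 and 372 CPM), Grn (110.3 and 52.2 CPM) and Plscr1 (81.4 and 52.2 CPM), and 2 passed upwards. Of 19 inducers and transcription factors 1 passed, and the most abundant were Il1b (5965 and 5070 CPM), Cebpb (3521 and 2015 CPM) and Nfkbia (3408 and 2181 CPM). Chil1, the other abundant chitinase-like gene of these cells, was at 183 and 32.6 CPM.

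In monocytes or macrophages Slpi was at 1209 CPM (1176 to 1243) in the wKO-labelled and 177 CPM (151 to 206) in the WT-labelled library, a log2 ratio of 2.77 (2.55 to 3.0). It was seen in 35.8% and 12.4% of the cells, and at 1000 UMIs per cell in 20.7% and 9.25%. The Nos2 subcluster set much of this value, at 10830 CPM in 85 wKO-labelled cells, 80.0% of which had Slpi. In the Ly6c2 subcluster, whose WT-labelled cells hardly carried its leading genes, Slpi was at 833 and 68.9 CPM. In that led by Hbb-bs and Ccl24 it was at 1266 and 200.97 CPM. The subcluster led by Lsmem1 went the other way, at 239 CPM in wKO-labelled and 473 CPM in WT-labelled cells (log2 ratio −0.99, interval −1.34 to −0.63). The 86 wKO-labelled cells with at least 10 UMIs held 86.2% of the class's Slpi and were deeper than its other cells (medians of 3963.5 and 2749.5 UMIs). They carried a median of 3 of 10 neutrophil and 5 of 14 monocyte or macrophage markers, against 2 and 6 in the other cells of the class.

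Plasma cells, of which there were only 40 and 34, had the highest Slpi level of any class in the wKO-labelled library and the second highest, after neutrophils, in the WT-labelled library. Slpi was at 4120 CPM in wKO-labelled and 959 CPM in WT-labelled plasma cells, a log2 ratio of 2.10 (1.86 to 2.35), and was seen in 77.5% and 61.8% of the cells. In the wKO-labelled library 3 cells (530, 133 and 94 UMIs) held at least 50% of the 1387 UMIs, and without the 3 highest cells of each library the levels were 2165 and 500 CPM (log2 ratio 2.11). The 17 wKO-labelled plasma cells with at least 10 UMIs carried a median of 7 of 7 plasma markers and 2 of 10 neutrophil markers. They were deeper than the other wKO-labelled plasma cells, at a median of 12964 UMIs against 4084. Relative to 1000 CPM of summed neutrophil markers, Slpi was at 3459 in wKO-labelled plasma cells, against 31.8 in neutrophils and 67.3 in B cells of that library. In plasma cells 14.7% of the 2377 genes measured had a log2 ratio of at least 1 and 33.4% one of at most −1.

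In epithelial cells as a whole Slpi had no higher CPM than in B cells, which were shallower (median depths of 4460 and 4049.5 UMIs in epithelial cells, against 1227.5 and 947 in B cells). It was at 129 CPM (126 to 133) in wKO-labelled and 20.1 CPM (18.3 to 22.1) in WT-labelled epithelial cells, while B cells were at 144 and 33.6 CPM. The log2 ratio was 2.69 (2.55 to 2.83) in epithelial cells and 2.10 (1.65 to 2.56) in B cells. A UMI was seen in 24.5% and 7.42% of epithelial cells, but at 1000 UMIs per cell in 7.82% and 1.87%, below the 14.1% and 2.82% of B cells. The 10 neutrophil markers, with none at 0, summed to 433 and 81.2 CPM in epithelial cells. Set against those markers the order was the other way, since Slpi per 1000 CPM of them was at 299 and 248 in epithelial cells, against 67.3 and 151 in B cells. Whether the level of the whole class lay above background was therefore not settled by these measures.

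A small part of the epithelium stood out from this. Cells with at least 10 Slpi UMIs numbered 100 (2.06%) in the wKO-labelled and 8 (0.304%) in the WT-labelled epithelium, held 68.6% and 36.4% of its Slpi, and carried medians of 12 and 11.5 of 12 epithelial markers and 2 and 0 of 10 neutrophil markers. They were far deeper than the other epithelial cells, at medians of 22935.5 and 23243 UMIs against 4305 and 4040.5. Their marker counts and the cut-off of 10 UMIs were thus not matched for depth. The goblet or deep secretory-like subcluster led by Defa24, Spink4 and Lyz1 was at 809 CPM in 248 wKO-labelled and 39.3 CPM in 137 WT-labelled cells, and 7 wKO-labelled cells held at least 50% of its 2520 UMIs. The inflammatory epithelial-like subcluster was at 191 and 18.1 CPM. Without the Defa24 subcluster the log2 ratio of the class was 2.03 (1.88 to 2.18). Of the 16733 genes measured in the epithelium, 0.944% had a log2 ratio of at least 1 and 1.23% one of at most −1. Of 9 WAP domain genes measured there 3 passed upwards, Slpi itself among them. Wfdc18 (1848 and 988 CPM) and Wfdc2 (474 and 267 CPM), both with more UMIs there than Slpi, did not. Of 6 Slpi targets and partners 1 passed upwards. Of 9 neutrophil granule genes 6 passed upwards, with S100a9 at 175 and 23.5 CPM, and 1 downwards (lactoferrin, Ltf, 10.4 and 180 CPM). The sum of neutrophil markers in these cells was 433 and 81.2 CPM, and its part in the result was not tested.

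In fibroblasts Slpi averaged 308 CPM in the wKO-labelled and 39.4 CPM in the WT-labelled library (log2 ratio 2.97, interval 2.62 to 3.33, or 2.21 with each cell counted equally), and 12 wKO-labelled cells held 76.2% of it. It was seen in 18.5% and 4.78% of fibroblasts, and at 1000 UMIs per cell in 9.64% and 1.99%, again below B cells. A mesothelial-like subcluster of 9 wKO-labelled cells led by Gpm6a, Slpi and Msln was at 8799 CPM and held 401 of the 820 UMIs, and it had no WT-labelled cell. In the subcluster led by the matrix metalloproteinases Mmp13 and Mmp10 Slpi was at 1032 and 82.7 CPM, with 148 of 206 wKO-labelled UMIs in 1 cell. Of the 12123 genes measured in fibroblasts, 3.37% had a log2 ratio of at least 1 and 2.12% one of at most −1. Of 7 neutrophil granule genes 6 passed upwards there, beside a sum of neutrophil markers of 1833 and 204 CPM, whose part in the result was not tested.

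Over the 12 named classes Slpi was higher in the wKO-labelled library in 12, each with an interval above 0, Saa3 was higher in 12 with 7 intervals above 0, and Chil3 was higher in 10 with 9 above 0 and had no UMI in the others. These counts include B cells, the background class, with Slpi at 144 and 33.6 CPM, Saa3 at 19.6 and 4.48 CPM and Chil3 at 6.53 CPM and 0 UMIs. They therefore do not separate expression in a class from background, whose part was not tested. Saa1 was higher in 7 and lower in 5, with 3 intervals on either side of 0. The classes also took different shares of the libraries: neutrophils were 11.6% of wKO-labelled and 1.87% of WT-labelled cells, and monocytes or macrophages 8.11% and 2.57%. When the wKO-labelled class levels were weighted by the WT-labelled composition of UMIs, the level over all cells was 344 CPM for Saa1, 31.6 for Saa3, 15.3 for Chil3 and 216 for Slpi, against measured WT-labelled values of 721, 3.24, 0.31 and 40.9 CPM. This weighting used whole classes and left the make-up within a class as it was: in neutrophils the Retnlg and Ngp cluster held 530 wKO-labelled and 2 WT-labelled cells.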

How the data were processed

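Gene-by-cell matrices of UMI counts, not normalised, were deposited by the authors for 2 libraries. Per the labels they were made with Cell Ranger 7.1.0 and the mm10 genome, and the submitters' processing notes also name Seurat. The matrices held 14168 barcodes and 66297749 UMIs for the library labelled STK25 wKO, and 12542 barcodes and 38737373 UMIs for the library labelled WT. The version of the 10x 3′ chemistry is not settled by the sources used here.

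Cells were kept where 200 or more genes were seen and mitochondrial UMIs were 25% or less. Counts scaled to 10000 a cell were log-transformed. Leiden clusters (resolution 1, 20 neighbours, 30 principal components) were built on 2000 variable genes that excluded the 5 members, without batch correction. Subclusters used resolution 1 in epithelial cells, 0.5 in both myeloid classes and 0.8 in fibroblasts. A name required 3 markers, each present in 10% of a cluster's cells and 5 percentage points above the median cluster, with a mean excess of 10 points (20 for subclusters). These naming thresholds were set after the data were seen, and the members and gene lists were chosen with earlier results of these data known. Classes rebuilt in this way may differ from the study's own. Scrublet's automatic threshold called 0% of cells as doublets, so none were removed from the values given. As an alternative, cells of highest score were left out, 1542 (11.1%) in the wKO-labelled and 1204 (9.81%) in the WT-labelled library.

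UMIs were summed per class and library and divided by the class total (CPM, per 1000000), with exact Poisson intervals. Shares of cells have Clopper-Pearson intervals and log2 ratios conditional binomial intervals, at 95%. With 1 library per condition these cover counting error only, and no test was made. A gene with 0 UMIs was given a floor of 3 counts over the class. Shares were also compared after thinning each cell to 1000 UMIs, leaving out shallower cells. A list gene was measured where it had 20 or more UMIs in the class and passed at a log2 ratio of at least 1 or at most −1 after 1 CPM was added. The values of 2 subclusters are not reported here, though class totals and counts of subclusters include them. The members count within their lists, and of each list the 4 with the most UMIs, or some of them, are named. Genes like a member were ranked by the Pearson r of log2(CPM + 1) over units of at least 50 cells. The ratio calculation was tested on simulated data. Promoters came from RefSeq and transcripts from GENCODE, both on GRCm38. Biopython 1.88 aligned them. Clustering used scanpy 1.11.5 with leidenalg 0.10.2, igraph 0.11.9 and scikit-learn 1.9.0, intervals scipy 1.17.1, tables pandas 2.3.3 and numpy 2.4.6, and plots matplotlib 3.10.9, under Python 3.11.15.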

Additional observations from a re-analysis of the deposited data

Results flagged for a closer look

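Saa1 went in opposite directions in 2 cell classes. Its log2 ratio of the library labelled STK25 wKO to the library labelled WT was 0.59 (0.41 to 0.76) in T or NK cells and −1.20 (−1.22 to −1.17) in epithelial cells. With 1 library per condition the difference between the classes was not tested. In T or NK cells 193 of 446 wKO-labelled UMIs were in 1 cell of 16220 UMIs that carried 10 of 12 epithelial and 6 of 13 T or NK markers, and without the highest cell of each library the log2 ratio was −0.19.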

How the results depend on the processing

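No paired analysis was possible because there was 1 library per condition, and leaving out a replicate was not possible for the same reason. The alternatives were run for 8 log2 ratios of the library labelled STK25 wKO to the library labelled WT, namely Saa1, Saa2, Saa3 and Slpi in epithelial cells, Saa3 in fibroblasts, Chil3 in both myeloid classes and Slpi in neutrophils, and these kept their direction wherever an alternative gave a value. Of the alternative values 49 stayed within the counting interval and 18 moved beyond it. Saa1 in epithelial cells (−1.20) moved to −1.14 without a cell filter, −1.24 under a stricter cell filter (500 genes, 10% mitochondrial UMIs), −1.17 at resolution 2, −1.16 with the highest Scrublet scores removed, −0.79 as a mean over cells, −1.43 with the B cell level subtracted and −1.03 with classes set cell by cell. Saa3 in epithelial cells (1.98) moved to 2.94 as a mean over cells and 2.96 with classes set cell by cell. Saa3 in fibroblasts (3.51) moved to 2.27 and 4.14 under the same 2 settings. Slpi in epithelial cells (2.69) moved to 2.52 with the highest Scrublet scores removed, 2.22 as a mean over cells, 3.0 with classes set cell by cell and 2.03 without the Defa24 subcluster. Set cell by cell, the epithelial class was much larger, with 9113 wKO-labelled and 7769 WT-labelled cells against 4853 and 2628. It held 880 and 63 Saa3 UMIs against 237 and 30, so its ratios describe a different set of cells. Slpi in neutrophils (1.64) moved to 1.25 with classes set cell by cell and 1.17 in the Acod1 and Hdc cluster alone. The log2 ratio of Chil3 in neutrophils against the floor of 3 counts (3.05) moved to 0.70 in that cluster. For the other ratios only the mean over cells and, for some, the removal of the highest cells were computed. As a mean over cells Saa1 turned to −0.26 in T or NK cells (0.59), −0.72 in dendritic cells (0.24) and −0.18 in fibroblasts (0.01), and Saa2 over all cells (−0.04) turned to 0.40. Saa1 over all cells (−0.95) was at −0.27, Saa3 in monocytes or macrophages (5.77) at 4.73, and Slpi at 2.21 in fibroblasts (2.97) and 1.59 in plasma cells (2.10). The cluster and subcluster choices were made after seeing the data. Subtracting the B cell level gave no value for Saa3 and Slpi in epithelial cells, which lay below it, and neither that nor the mean over cells gave one for Chil3 in neutrophils. The causes of these shifts were not tested. The counts limit Saa2, with 43 WT-labelled epithelial UMIs, and the WT-labelled myeloid values of Saa3 and Chil3, with 7 and 6 UMIs.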
